A study of Homo sapiens with 3 samples.

Results

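Most ZNF genes encode proteins built around zinc fingers of the C2H2 kind. Of the 413 rows with a numbered ZNF symbol, 81 were counted well enough in HEK293 cells to be described one by one. These members were chosen by their counts: they are the rows named ZNF and a number, with at most 1 letter after it, whose raw counts summed over the 3 libraries reached 60. The whole table has 17595 rows of endogenous genes and 17675 rows with the spiked control RNAs. HEK293 cells are a long-established human line, derived from embryonic kidney cells transformed with adenovirus DNA. For each library 1000 cells with no labelled treatment were lysed with control RNA at 20000 molecules per cell, and the equivalent of 100 cells went into 18 cycles of PCR. Reverse transcription with template switching marked the 5′ ends of the RNAs, and only 5′ terminal fragments were sequenced. The 3 libraries form 1 group with no treated or control arm, and they are called 20, 21 and 23 after their column names. Nothing in the labels says that they came from separate cultures, so their spread may be technical.

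Library 20 held 1475769 endogenous counts, library 21 held 1330877 and library 23 held 1545594. Levels are given as counts per 1000000 endogenous counts (CPM), so 1 count was worth 0.647 to 0.751 CPM. One RNA gives one 5′ end in this method, and counts were therefore not divided by length. All 8 markers used for the cell line had means of 10 CPM or more, led by STMN1 at 623 CPM. None of the markers of blood, endothelium, fibroblasts, hepatocytes or differentiated kidney epithelium did so, and PTPRC, CDH5, ALB and UMOD had no counted row.

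A C2H2 finger is a short loop that holds a zinc ion between a pair of cysteines and a pair of histidines. Rows of such fingers read DNA, and in some proteins they bind RNA or other proteins instead. The largest branch in mammals joins the fingers to a KRAB domain, which recruits the scaffold protein TRIM28 and, through it, enzymes that lay down silent chromatin, often on retroelements. Another branch carries a SCAN domain, through which these proteins pair. Many genes with a KRAB domain lie in clusters on chromosome 19.

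ZNF transcripts were scarce. The 81 members took 0.298% ± 0.00465 of endogenous counts (SD, n = 3 libraries), and all 413 ZNF rows took 0.444% ± 0.00456. Of the ZNF rows 19.6% reached 60 counts, against 39.6% of the 17182 other endogenous rows. The members had a median of 21.6 CPM, and the 6807 other genes past the same minimum had a median of 42.1 CPM. With no minimum the medians lay closer, at 5.09 CPM over all ZNF rows and 7.16 CPM over all endogenous rows. The ZNF rows below the minimum had a median of 3.26 CPM, 97 of them had under 10 summed counts, and 348 of all 413 rows had a count in each library. Because the rule used these counts, the levels are a description and carry no test.

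The members spanned from 13.7 to 208 CPM and were top-heavy. Of the 81, 6 had means of 100 CPM or more, 15 reached 50 CPM and 49 reached 20 CPM. The 10 most counted members held 40.5% of all member counts and the 25 most counted held 63.5%. The 56 members after those 25 lay between 13.7 and 29.15 CPM, and 21 of them matched the KRAB domain described below. Set against the spiked RNA, the libraries held 523500 ± 26800 endogenous molecules per cell (SD, n = 3). On that scale the median member had 11.3 molecules per cell, the median of all ZNF rows was 2.65, and the top member, ZNF593, had 109 ± 4.13. These are estimates that take ZNF mRNAs to be captured as well as the spikes, and a mean over a lysate cannot tell fewer expressing cells from less RNA per cell. At the limit itself, ZNF317 and ZNF37A had 60 counts each and ZNF830 had 62, while just outside ZNF629 had 59, ZNF318 had 57 and ZNF263 had 56.

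The most counted member was ZNF593, whose yeast relative helps to export the large ribosomal subunit. It had 308 counts in library 20, 279 in library 21 and 316 in library 23, a level of 208 ± 2.76 CPM (SD, n = 3) with an exact 95% Poisson interval of 194 to 221.5 CPM for the pooled counts. The 3 libraries lay close together, with a coefficient of variation of 1.33%. ZNF706, a very small protein whose mouse relative restrains self-renewal in embryonic stem cells, had 227, 210 and 192 counts in libraries 20, 21 and 23, or 145 ± 18.3 CPM. Library 23 was its low one. ZNF271 had 213, 186 and 221 counts, or 142 ± 2.35 CPM. This row is a transcribed pseudogene in current annotations, the only member that GENCODE release 29 does not class as protein coding, and it ranked 3 of 413. ZNF703, a corepressor of the NET family that is amplified in some breast cancers, had 166, 187 and 252 counts, or 139 ± 25.3 CPM. Its relative ZNF503 had 126, 109 and 148 counts, or 87.7 ± 7.21 CPM. In both, library 23 was the highest.

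**Figure D1:**
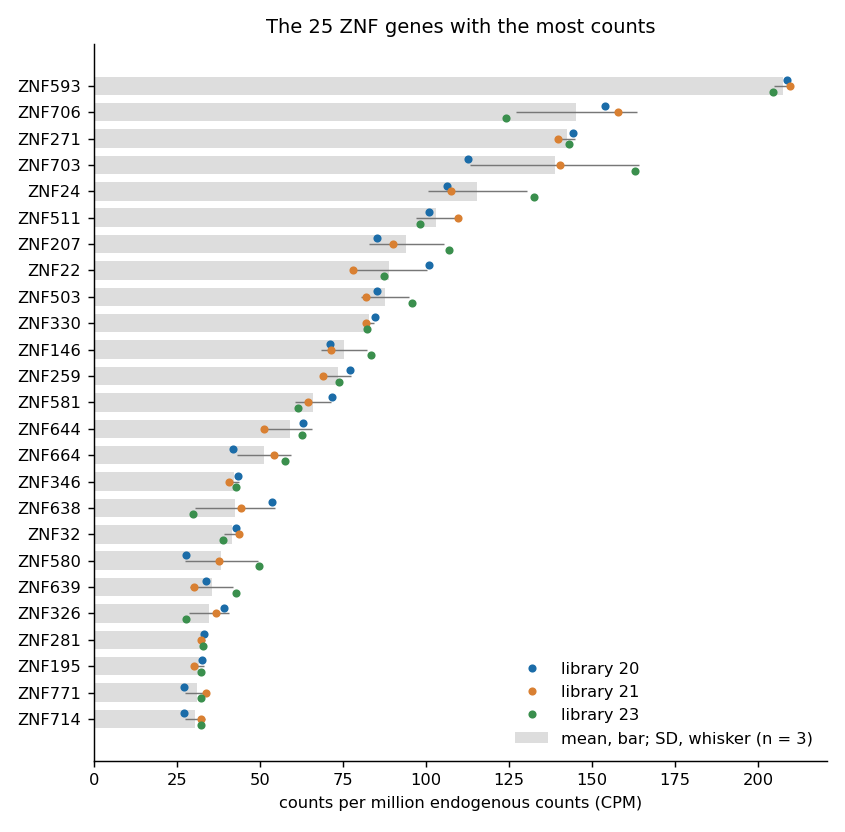
Level in CPM of the 25 ZNF genes with the most counts. Bars are means and whiskers SD over 3 libraries, and the coloured points are libraries 20, 21 and 23. ZNF593 stands above all others at 208 CPM, and the 25th gene, ZNF714, is at 30.6 CPM.

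The next members were of mixed kinds. ZNF24, a SCAN protein that represses the growth factor gene VEGFA, had 157, 143 and 205 counts, or 115.5 ± 14.9 CPM. ZNF511 had 149, 146 and 152 counts, or 103 ± 5.95 CPM, with no library apart from the others. ZNF207, also called BuGZ, which loads the checkpoint protein BUB3 onto kinetochores, had 126, 120 and 165 counts, or 94.1 ± 11.2 CPM. ZNF22 had 149, 104 and 135 counts, or 88.8 ± 11.5 CPM. ZNF146, a protein made almost wholly of fingers, had 105, 95 and 129 counts, or 75.3 ± 7.04 CPM. ZNF581 and ZNF580, which overlap on 1 strand in the annotation, had 66.0 ± 5.31 and 38.4 ± 11.04 CPM, and how shared reads were split between them is not known. In ZNF580 the counts were 41, 50 and 77, and in ZNF581 they were 106, 86 and 95, so library 23 was the highest for ZNF580 and the lowest in CPM for ZNF581.

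For 6 of the most counted members, the 40 bases around the annotated start of the gene are printed here, because the assay reads RNAs from their 5′ ends. They are from build GRCh38.p14, which is not the hg19 build of the counts, and the capital marks the first transcribed base in RefSeq.
ZNF593, chr1:26169888-26169927, plus strand: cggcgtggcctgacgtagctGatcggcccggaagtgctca
ZNF24, chr18:35344401-35344440, minus strand: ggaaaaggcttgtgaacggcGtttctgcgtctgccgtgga
ZNF511, chr10:133308894-133308933, plus strand: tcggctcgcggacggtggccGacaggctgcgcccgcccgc
ZNF207, chr17:32350137-32350176, plus strand: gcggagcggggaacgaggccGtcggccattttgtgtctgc
ZNF22, chr10:45000903-45000942, plus strand: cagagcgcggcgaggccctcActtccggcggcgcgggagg
ZNF503, chr10:75401897-75401936, minus strand: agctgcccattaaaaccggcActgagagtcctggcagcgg
All 6 starts are a purine, G in the first 4 and A in ZNF22 and ZNF503. The counts per gene do not say at which base the tags began.

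The zinc fingers that the name implies were looked for in the members' coding sequences. Of 81 members 80 had one in GENCODE release 29, and the C2H2 pattern was counted in its translation. The median was 7 patterns. ZNF703, ZNF503, ZNF330, ZNF259 and ZNF738 had 0 matches. ZNF703 and ZNF503 have an atypical finger, and ZNF259, now named ZPR1, has fingers of another kind. ZNF593, ZNF706, ZNF207, ZNF326, ZNF598, ZNF428, ZNF704 and ZNF830 had 1 match each. At the other end ZNF721 had 23 patterns, ZNF585A 21, and ZNF574 and ZNF473 18 each, at 14.9, 22.7, 15.6 and 14.75 CPM. ZNF473 takes part in the processing of histone pre-mRNA through the U7 particle.

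ZNF rows with few C2H2 patterns reached the minimum more often than rows with many. Of ZNF rows with 1 to 3 patterns 18 of 35 reached 60 counts, of those with 4 to 7 patterns 23 of 78, with 8 to 11 patterns 21 of 121, with 12 to 15 patterns 7 of 94 (7.45%), and with 16 or more 6 of 66 (9.09%). The order was not unbroken, since rows with 0 patterns reached it in 5 of 11 cases (45.45%), against 51.4% of rows with 1 to 3 patterns. Across the 405 ZNF rows with a coding sequence the rank correlation of summed counts with the number of patterns was -0.33, and across the 80 members it was -0.38. With the length of the transcript it was 0.01 across the 405 rows and -0.23 across the members. With the length of the protein it was -0.1 across the 405 rows and -0.34 across the members. The number of patterns, the protein length and a KRAB match were not separated. These are descriptions across genes of the same libraries, and genes are not replicates.

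**Figure D2:**
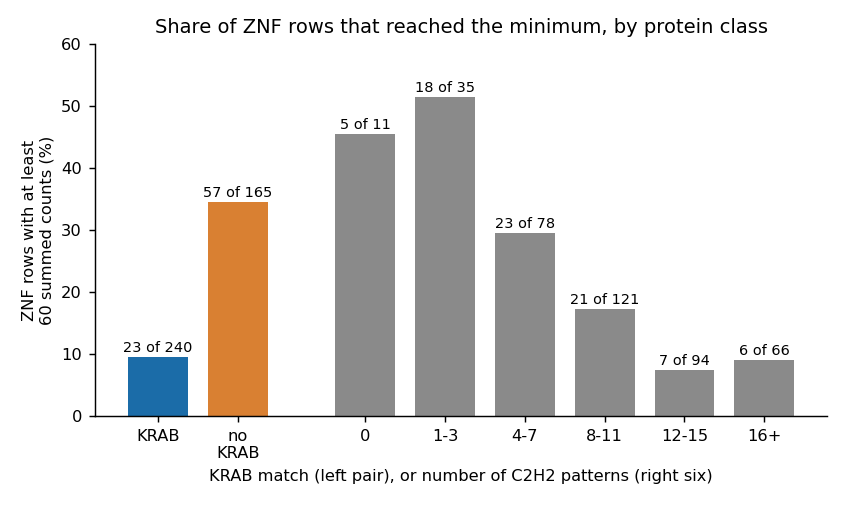
Percentage of ZNF rows that reached 60 summed counts, by KRAB match (left pair) and by number of C2H2 patterns (the other bars); bars are labelled with counts. The bar with 12 to 15 patterns stands at 7 of 94 rows, and the bar with 1 to 3 patterns at 18 of 35.

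KRAB genes made up most of the ZNF rows but few of the members. A search with the KRAB stretch of ZNF10 matched 23 of the 80 members with a coding sequence (28.75%) and 217 of 325 such rows below the minimum (66.8%). Put the other way, 23 of 240 KRAB rows reached 60 counts (9.58%), against 57 of 165 rows with no match (34.55%). The search misses some KRAB genes: ZNF133, a known KRAB repressor, and ZNF720, now named KRABD5, had no match, and both were below the minimum. Misses may also lie among the members, since an iterated search matched 24 of them. The median level was 3.34 CPM over KRAB rows and 8.27 CPM over the others. Of the members' counts in rows with a coding sequence, the KRAB genes held 16.3%. The highest row with a KRAB match stood at 31.6 CPM, and 22 members lay above it. By this choice of level none of those 22 can hold a match in the first search. They include ZNF271, which had no coding sequence and was not searched. With the iterated search, 9.52% of KRAB rows and 36.6% of rows with no match reached 60 counts.

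The leading KRAB gene was ZNF195, with 48, 40 and 50 counts in libraries 20, 21 and 23, or 31.6 ± 1.38 CPM (SD, n = 3). ZNF714 had 40, 43 and 50 counts, or 30.6 ± 3.02 CPM. ZNF282, which was cloned as a binder of the long terminal repeat of the leukaemia virus HTLV-1, had 37, 33 and 54 counts, or 28.3 ± 5.78 CPM. The libraries differed little in ZNF195 and ZNF714, and library 23 was the high one in ZNF282. ZNF480 reached 25.8 ± 2.47 CPM, ZNF749 23.01 ± 10.1 CPM, ZNF595 22.9 ± 3.00 CPM and ZNF585A 22.7 ± 5.50 CPM. ZNF746, known as PARIS, a repressor of the gene PPARGC1A and a target of the ligase parkin, reached 15.1 ± 2.103 CPM. The lowest KRAB member was ZNF317 at 13.7 ± 3.61 CPM. Members of recent clusters, such as ZNF714, ZNF738, ZNF92, ZNF138 and ZNF595, have close copies, and the handling of reads that match several copies is not given in the sources used here.

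**Figure D3:**
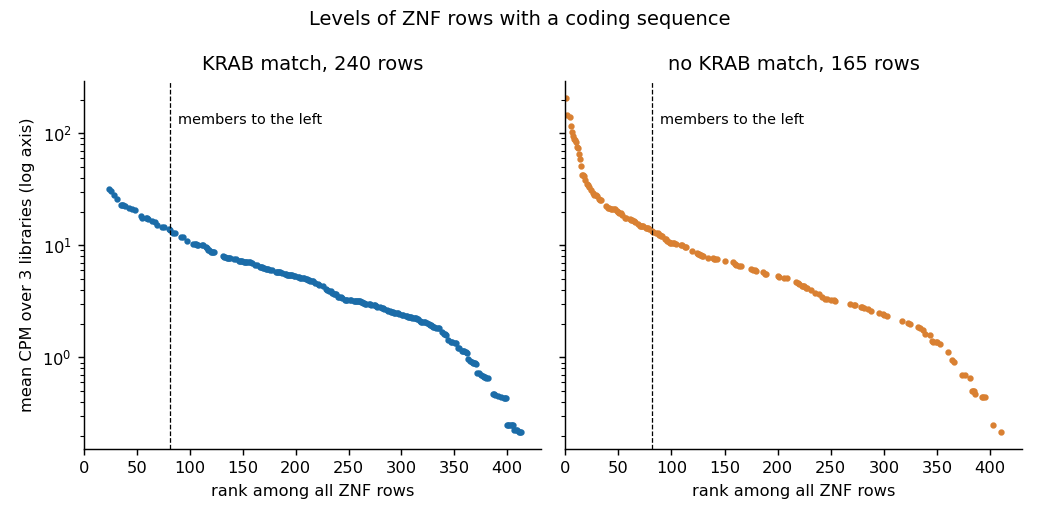
Mean CPM (log axis) against rank among all 413 ZNF rows, for the 240 rows with a KRAB match (left) and the 165 without (right). The dashed line marks the 81 members; the KRAB rows stay at or under 31.6 CPM and the rows without a match reach 208 CPM.

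None of the listed KRAB repressors with known roles on retroelements, imprints or as models was a member. The list does not hold ZNF282 or ZNF746, which are members. Of its 14 genes 12 had a row, and none of them reached 60 counts. The median over the 14, with a gene without a row entered as 0, was 2.47 ± 0.457 CPM (SD of the library medians, n = 3). ZNF268 came closest, with 14, 20 and 22 counts in libraries 20, 21 and 23. ZNF274, which brings SETDB1 to the 3′ ends of ZNF genes, had 14, 10 and 10 counts, or 7.82 ± 1.53 CPM. ZNF649 had 9 counts in each library. ZNF445, which keeps imprinted marks in place, had 8, 6 and 11 counts. ZNF10, the source of the KRAB domain used in many synthetic repressors, had 3, 2 and 2 counts. ZNF91, which silences SVA retroelements, had 1, 0 and 2 counts, and ZNF85 had 1 count in all. At these counts the libraries cannot be told apart.

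The listed cofactors of KRAB silencing had a higher median level than the KRAB genes, with overlap between the 2 sets. All 21 listed cofactors had counts, 20 had means of 10 CPM or more, and the list median was 37.8 CPM. The median was 3.34 CPM over KRAB rows, 18.3 CPM over KRAB members and 42.1 CPM over the other genes past the minimum. Several cofactors, such as MORC2 at 16.4 CPM, lay below the top KRAB row at 31.6 CPM. TRIM28, the scaffold that binds KRAB, had 376, 349 and 465 counts, or 273 ± 24.7 CPM. HP1 gamma, encoded by CBX3, reached 652 ± 16.1 CPM, and CBX5 and CBX1 reached 97.9 ± 2.22 and 50.1 ± 4.85 CPM. The deacetylase genes HDAC2 and HDAC1 had 295.5 ± 20.0 and 291 ± 3.68 CPM. The methyltransferase gene SETDB1 was low, with 23, 20 and 17 counts or 13.9 ± 2.50 CPM, and its partner ATF7IP had 19, 10 and 11 counts or 9.17 ± 3.22 CPM. Of the HUSH silencing complex, PPHLN1 had 137 ± 7.52 CPM, MPHOSPH8 26.1 ± 8.69 CPM and FAM208A 16.3 ± 5.04 CPM.

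Among the lists of ZNF genes, the one for RNA, ribosomes or mitosis had the largest share of members. The lists were chosen with earlier results of these data known, so this share describes the list and carries no test. Of the 15 listed genes 12 were members, with a list median of 25.8 ± 0.698 CPM. Below the minimum were ZNF318 at 13.1 ± 1.435 CPM, ZNF385A at 12.4 ± 4.47 CPM and ZNF185 at 1.41 ± 0.795 CPM. After ZNF593 and ZNF207 came ZNF330, a nucleolar autoantigen, with 125, 109 and 127 counts or 82.9 ± 1.55 CPM. ZNF259, which binds the translation factor eEF1A and the SMN complex, had 114, 92 and 114 counts, or 73.4 ± 4.07 CPM. Both varied little over the libraries. ZNF346, which binds double-stranded RNA, had 42.2 ± 1.46 CPM. ZNF638, which works with the HUSH complex against unintegrated retroviral DNA, had 79, 59 and 46 counts, or 42.5 ± 11.99 CPM, highest in library 20. ZNF326, which links transcription to splicing, had 34.65 ± 6.04 CPM. ZNF622, whose yeast relative matures the large ribosomal subunit, had 21.2 ± 2.85 CPM. ZNF598, a ubiquitin ligase that marks collided ribosomes, had 17.6 ± 3.06 CPM.

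Of 11 listed promoter-binding activators 8 were members, with a list median of 21.6 ± 2.35 CPM and a range from 4.53 to 35.55 CPM. The 3 below the minimum were ZNF219 at 4.53 ± 1.33 CPM, ZNF76 at 10.45 ± 2.88 CPM and ZNF335 at 11.3 ± 3.99 CPM. ZNF639 led with 50, 40 and 66 counts, or 35.55 ± 6.49 CPM. ZNF281 and ZNF148, related factors that bind GC-rich sequence, had 32.8 ± 0.468 and 28.3 ± 3.898 CPM. ZNF410, whose main known target is the remodeller gene CHD4, had 46, 37 and 36 counts, or 27.4 ± 3.95 CPM, and CHD4 itself had 98.7 ± 8.99 CPM. ZNF143, which activates small nuclear RNA genes and many housekeeping promoters, had 29, 33 and 29 counts, or 21.1 ± 3.26 CPM. ZNF711, a cause of X-linked intellectual disability when mutated, had 16.3 ± 3.28 CPM. It was 1 of 3 members among the 12 ZNF rows on the X chromosome, beside ZNF280C at 22.6 ± 3.17 CPM and ZNF275 at 19.7 ± 5.48 CPM.

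Other repressors and developmental genes were uneven. Of 11 repressors without KRAB 5 were members. After ZNF703 came ZNF644, a partner of the histone methyltransferases EHMT1 and EHMT2, with 93, 68 and 97 counts or 58.96 ± 6.81 CPM. ZNF451, a ligase for the modifier SUMO, had 21.2 ± 3.5 CPM, ZNF687 14.4 ± 2.21 CPM and ZNF652 14.25 ± 1.80 CPM. The list median was 8.51 ± 2.02 CPM. Among 16 developmental and tissue genes 9 had a row under the listed symbol and 3 were members. These were ZNF703, ZNF503 and ZNF292, and ZNF292 had 23, 25 and 25 counts. The neural factors ZNF536 and ZNF521 had 5, 7 and 5 and 6, 4 and 0 counts. The search for the SCAN domain matched 23 ZNF rows, with a median of 7.055 CPM, and 3 of them were members, ZNF24, ZNF444 at 18.6 ± 3.55 CPM and ZNF232 at 17.6 ± 6.04 CPM. ZNF24 was the highest of the 23. A list of 17 SCAN genes, 16 of them with a row, held the same 3 members and had a median of 6.70 ± 0.959 CPM. That median counts ZNF193, which had no row under this symbol, as 0.

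**Figure D4:**
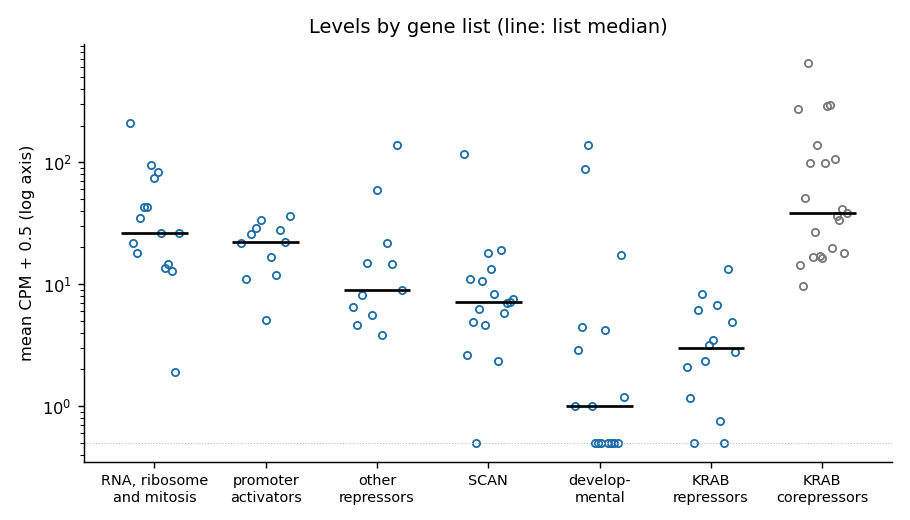
Mean CPM plus 0.5 (log axis) of every gene in 6 lists of ZNF genes and in the list of KRAB cofactors (grey). Lines are list medians and the dotted line marks genes with no row under the listed symbol. The KRAB repressors have a median of 2.47 CPM and the cofactors one of 37.8 CPM.

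On chromosome 19 lay 20 of the 81 members (24.7%), 182 of the 413 ZNF rows (44.1%) and 5.94% of all genes with at least 60 counts and an annotation. Of the ZNF rows on chromosome 19, 10.99% were members, against 26.4% of those elsewhere. Among KRAB rows 9 of 148 on chromosome 19 and 14 of 92 elsewhere were members, while among rows with no KRAB match it was 11 of 33 and 46 of 132. The highest member on chromosome 19, ZNF146, does not match KRAB. With genes within 500 kb of each other taken as neighbours, 23 members fell into 10 groups. ZNF271 and ZNF24, next to each other on chromosome 18, were both among the 5 most counted, at 142 and 115.5 CPM. The other 9 groups had members between 13.7 and 66.0 CPM. Gene bodies of 58 of the 81 members overlap another annotated gene, 28 of them on the same strand, and whether counting used strand is not given in the sources used here.

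The members' promoters were GC-rich, as were those of other counted genes. RefSeq windows from 250 bases before to 50 after the start were found for 70 members. Their median GC content was 63.7%, against 61.3% for 279 other ZNF rows and 65.3% for all 5711 genes with at least 60 counts and a window. The ETS letters CCGGAAG, read on both strands, stood in 32.9% of the members' windows, in 44.1% of the other ZNF windows, in 23.9% of those of all genes with 60 counts and in 10.3% of all 35116 windows. In all, 9 motifs were searched, and those printed with their sites below were picked after their shares were seen. For 5 others the shares in the members' windows and in those of all genes with 60 counts were as follows: 41.4% against 39.1% for CCAAT, 68.6% against 73.1% for GGGCGG, 7.14% against 6.83% for the NRF1 core GCGCATGC, 5.71% against 5.57% for the YY1 core AAGATGGCG, and 0.0% against 1.401% for a palindrome with CGCG in its centre. The TATA letters TATAAA stood in 4.29% of the members' windows and in 4.85% of those of all genes with 60 counts.

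The core of the ZNF143 site, searched on both strands as ACTACAA, any base and TCC, stood in 7 of the 70 windows (10.0%), in 2.15% of the other ZNF windows, in 3.06% of those of all genes with 60 counts and in 0.988% of all windows. None of the other motifs named here is contained in it. The 7 matches are printed with 9 bases on each side, 5′ to 3′ on the strand of the gene in GRCh38.p14, with the motif or its reverse complement in capitals.
ZNF32, chr10:43648868-43648896, minus strand: agactcctgGGAGTTGTAGTccattccgc
ZNF277, chr7:112206487-112206515, plus strand: agcacgctgGGAATTGTAGTtcttggcct
ZNF451, chr6:57089986-57090014, plus strand: cggacccgaACTACAATTCCcagcatcct
ZNF358, chr19:7516053-7516081, plus strand: cgcgggcgaACTACAAGTCCcagcagctc
ZNF691, chr1:42846427-42846455, plus strand: ttccttaggACTACAACTCCcagcatgcc
ZNF444, chr19:56141155-56141183, plus strand: tgcttcctgGGAGTTGTAGTtcggggtga
ZNF317, chr19:9140308-9140336, plus strand: aacttcaaaACTACAATTCCcagcatcct
Levels of the 7 ranged from 13.7 CPM in ZNF317 to 41.7 CPM in ZNF32, which had 63, 58 and 60 counts in libraries 20, 21 and 23. None of them was among the 15 members above 50 CPM. The cyclic AMP response letters TGACGTCA stood in 6 of the 70 windows (8.57%). They stood in 3.58% of the other ZNF windows, in 4.06% of those of all genes with 60 counts and in 1.85% of all windows. Of the 6, ZNF593, ZNF511 and ZNF330 are among the 10 most counted members. The rest are ZNF121 at 29.15 CPM, ZNF143 at 21.1 CPM and ZNF561 at 16.5 CPM. A link between these letters and the level was not tested. The sites of ZNF593, ZNF511 and ZNF330 are shown with that motif in capitals.
ZNF593, chr1:26169837-26169862, plus strand: ggccgagagTGACGTCAtcagaggcg
ZNF511, chr10:133308869-133308894, plus strand: aagtgagcgTGACGTCAcgtccggct
ZNF330, chr4:141220865-141220890, plus strand: cccgtcctaTGACGTCAgccgtaagg
A match says that the letters are there, not that a factor binds.

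How a member's counts split among the libraries was not used to choose it, and this was tested. Each gene with at least 10 pooled counts was compared between each pair of libraries by a 2-sided exact binomial test, adjusted by Benjamini-Hochberg over all 11424 genes and 3 pairs. The test compares libraries of the same cells, not conditions, and covers counting error only. No member passed an adjusted p of 0.05, where the background was 0.56% of all genes tested and 0.9% of the genes with at least 60 counts. At an unadjusted p under 0.05 in any pair, 9 of the 81 members (11.1%) stood out, below the background of 15.9% of all genes tested and 19.3% of genes with at least 60 counts. The test has less power at lower counts, and the members had a median of 21.6 CPM against 41.7 CPM in the latter set. These shares were not matched for depth, so the lower share does not show a smaller spread. A chi-square test over the 3 libraries called 0 members and 83 of the 11424 genes tested.

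The member nearest to the threshold was ZNF703, at 163 CPM in library 23, 141 CPM in library 21 and 112.5 CPM in library 20. Its log2 ratio of library 23 over library 20 was 0.53 (exact binomial test, adjusted p = 0.065), and the adjusted p of this pair ranged from 0.0036 to 0.1 over the alternatives that hold both libraries. It passed when library sizes were set by the spikes, when a minimum of 60 pooled counts was used, and without library 21. In the fits of a single other pair, the adjusted p was 0.8 for library 23 over library 21 and 0.92 for library 21 over library 20. ZNF638 had a log2 ratio of -0.84 for library 23 over library 20 (exact binomial test, adjusted p = 0.23), and ZNF580 had one of 0.83 (adjusted p = 0.26). ZNF749, with 27, 46 and 25 counts in libraries 20, 21 and 23, was high in library 21 and had the largest coefficient of variation of all members, 43.7%. Its log2 ratio of library 23 over library 21 was -1.08 (exact binomial test, adjusted p = 0.24).

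Measures of spread between libraries are given beside those of all genes with at least 60 counts, a set that holds the members and is deeper, with a median of 41.7 CPM. The Pearson chi-square over its 2 degrees of freedom had a median of 0.85 over the members and of 0.896 over all genes with at least 60 counts, and counting error alone gives 0.693. The median coefficient of biological variation per gene from edgeR was 0.0613 over the members and 0.0612 over all genes with that minimum. The fit draws these values per gene toward a level shared by all genes, so near-equal medians are partly built in. Library 23 had the highest CPM in 31 members, library 20 in 28 and library 21 in 22, where over all genes with at least 60 counts the shares were 39.7%, 31.9% and 28.4%. Together the members took 0.303% of endogenous counts in library 23, 0.296% in library 20 and 0.294% in library 21.

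**Figure D5:**
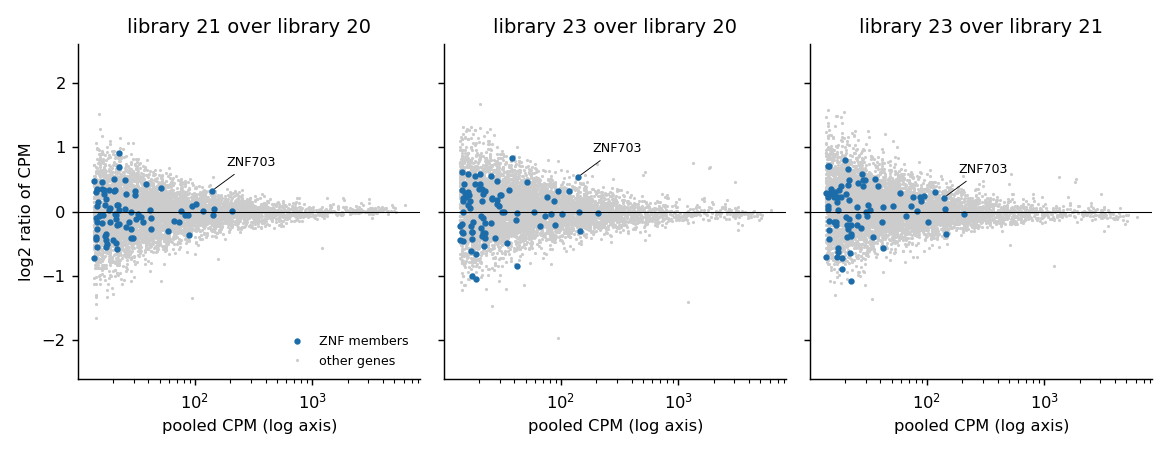
Log2 ratio of CPM for each pair of libraries against pooled CPM (log axis), for the 81 ZNF members (blue) and all other genes with at least 60 counts (grey). Members lie between -1.08 and 0.91 in the 3 panels and within the cloud of the other genes; ZNF703 is labelled.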

How the data were processed

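The authors deposited raw counts per gene for 3 libraries of HEK293 cells, with no normalization, as whole numbers. The tools named by the submitters' processing notes are STAR 2.4.0a and cutadapt 1.2.1, with build hg19 (GRCh37). How genes were counted, with which annotation and strand setting, and whether identifiers were collapsed is not stated there, so a count may be a read or a molecule. Columns carry no replicate number and were used as unnumbered replicates of 1 group. Intervals and p-values cover counting error only.

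Levels are CPM of endogenous counts, with mean and SD over 3 libraries. The pair test was a 2-sided exact binomial test given the endogenous totals, over all genes. With 1 group, edgeR's quasi-likelihood test has no contrast, and edgeR 4.0.16 gave only the variation between libraries. Molecules per cell scale each level by the ratio of endogenous to spike counts and by the number of spike molecules added per cell.

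Gene features were matched by symbol to GENCODE release 29 (GRCh38), and all 81 members matched. The C2H2 pattern is 2 cysteines with 2 to 4 residues between them, 12 residues, and 2 histidines with 3 to 5 residues between them. It was counted in the translation of the longest coding sequence, in place of a RefSeq protein. KRAB and SCAN matches came from phmmer of HMMER 3.4, at an E-value of at most 1e-05, with residues 14 to 85 of ZNF10 and 46 to 134 of ZNF24. Promoters are from RefSeq (GRCh38.p14), and motifs were searched on both strands.

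The members and lists were chosen with earlier results of these data known. Named genes were drawn from the 25 most counted members, of which ZNF664 and ZNF771 are shown only in the figure of these 25. Up to 4 of each list were planned, and more are named from some lists. Rows at the limit of the rule and members with the most or fewest C2H2 patterns are also named. Others, such as ZNF749 and the lower KRAB members, were chosen after their values were seen. Alternatives covered library sizes (TMM, DESeq2 1.42.0, spikes), minimum counts, a chi-square test, search limits and the omission of each library. Python 3.11.15, scipy 1.17.1 and R 4.3.3 were used.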

Additional observations from a re-analysis of the deposited data

How the results depend on the processing

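No paired analysis was possible because the libraries form 1 group and their columns carry no replicate number. The count of members called between libraries was 0 in the analysis as reported and 0 with TMM or DESeq2 library sizes, with no minimum and with the chi-square test. It was 1, ZNF703, with library sizes from the spikes and with a minimum of 60 pooled counts, and 0 to 1 when a library was left out. Over all genes 64 were called as reported, 79 with TMM sizes, 114 with DESeq2 sizes and 250 with spike sizes. The count was 56 with no minimum, 82 with a minimum of 60 pooled counts and 83 with the chi-square test. When a library was left out, 8 to 59 were called, the fewest without library 23. Fewer pairs enter such a fit, and the cause of the other shifts was not tested. The members' median level was 21.9 to 22.75 CPM when a library was left out, against 21.6 CPM with all. Their share was 0.287% with the spikes in the denominator and 0.444% with all ZNF rows. The number of members was 159 at a minimum of 30 summed counts and 29 at 120. In a check chosen after seeing the data, 26.25% of KRAB rows and 56.4% of rows without KRAB reached 30 counts, and 1.25% and 15.15% reached 120. Members with a KRAB match numbered 20 to 24 over the search settings, and the median of 7 C2H2 patterns was the same with a looser pattern. The mean CPM of each of the 25 most counted members moved by less than 1 SD with TMM sizes. Genes near 10 CPM rest on few counts per library, which limits the precision of their levels.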
